A study of Mus musculus with 6 samples.

Results

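The transcripts described here encode the proteins of the 2 ribosomes of a mouse cell, the cytosolic ribosome and the ribosome inside mitochondria. They were taken from the deposited table by name, as protein-coding genes with symbols beginning Rpl, Rps, Rplp, Rpsa, Mrpl or Mrps, without ribosomal S6 kinases and without names marked as pseudogenes. The rule found 162 of the 23194 genes in the table. Of these, 86 were assigned by name to the cytosolic ribosome and 76 to the mitochondrial ribosome. The cytosolic set held 43 large-subunit genes, 31 small-subunit genes, 3 genes of the P-stalk and 9 paralogues or related genes. The mitochondrial set held 47 genes with large-subunit names and 29 with small-subunit names. One gene found by the rule, Rps19bp1, encodes a protein that binds Rps19 and is not itself a ribosomal protein.

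RNA was sequenced from whole left lungs of adult wild-type mice of the inbred C57BL/6 strain. The naive group had 3 lungs, and the labels describe no operation on these mice. The injured group had 3 lungs whose left pulmonary artery was ligated for 4 h and then reperfused for 24 h, so that operation, ischemia and reperfusion cannot be told apart. Each lung was taken as 1 mouse, although the labels do not say so, and p-values measure the spread between these lungs. Libraries held 18913487 to 34986276 counts. In this bulk tissue, fewer cells of a type and less RNA per cell cannot be told apart.

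Each ribosome has a small subunit, which holds and decodes the messenger RNA, and a large subunit, which joins amino acids. The cytosolic ribosome makes nearly all proteins of the cell, while the mitochondrial ribosome makes the few membrane proteins encoded by mitochondrial DNA. The protein parts of both are encoded in the nucleus. Many cytosolic ribosomal protein messengers begin with a C followed by a run of pyrimidines, the terminal oligopyrimidine (TOP) start, through which growth signals control their translation.

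Start-site sequences are shown because the TOP start is the sequence feature best known to set the cytosolic family apart. They come from the RefSeq promoter table (GRCm38.p6, the build also called mm10), in which 132 of the 162 genes were matched, 65 cytosolic and 67 mitochondrial, with 150 annotated starts. Each line gives 15 bases before the start and 15 bases from the start onward, 5′ to 3′ on the gene's strand. Capitals mark the unbroken pyrimidine run that begins at the annotated start. The first line is Rps2, the only member called changed. The next 5 are cytosolic genes, of which Rplp2, Rps18, Rpl15 and Rps9 were chosen after their sequences were seen. Rpl22 and its paralogue Rpl22l1, Rpl36a and its paralogue Rpl36al, and Rps27l, the paralogue of Rps27, follow, with the most upstream start where several were annotated. The last 3 are mitochondrial genes with values described further on.
Rps2 (chr17:24720048-24720077, + strand): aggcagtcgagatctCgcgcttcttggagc
Rplp2 (chr7:141447636-141447665, + strand): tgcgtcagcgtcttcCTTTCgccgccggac
Rps18 (chr17:33955651-33955680, - strand): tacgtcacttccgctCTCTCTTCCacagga
Rpl15 (chr14:18270972-18271001, - strand): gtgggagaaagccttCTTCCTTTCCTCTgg
Rps27 (chr3:90213634-90213663, - strand): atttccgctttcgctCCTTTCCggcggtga
Rps9 (chr7:3704026-3704055, + strand): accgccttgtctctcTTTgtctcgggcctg
Rpl22 (chr4:152324421-152324450, + strand): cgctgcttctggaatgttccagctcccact
Rpl22l1 (chr3:28805493-28805522, + strand): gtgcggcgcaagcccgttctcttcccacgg
Rpl36a (chrX:134585639-134585668, + strand): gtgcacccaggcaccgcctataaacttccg
Rpl36al (chr12:69184053-69184082, - strand): cattcccgtcgctcaggttcagttccgact
Rps27l (chr9:66946071-66946100, + strand): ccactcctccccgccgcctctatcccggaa
Mrps24 (chr11:5707687-5707716, - strand): gccccgccttcctgcggctgcgcactgacg
Mrpl52 (chr14:54426894-54426923, + strand): tgccggggccacgccCacttccggttccct
Mrpl12 (chr11:120484622-120484651, + strand): agctcgcctcctcccggatagagcgtcgct

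A C followed by at least 4 pyrimidines stood exactly at the annotated start in 14 of 77 cytosolic windows (18.2%) and in 0 of 73 mitochondrial windows, against 823 of all 32851 windows in the table (2.51%). Annotated starts can lie a few bases from the start a cell uses. With the run allowed to begin within 5 bases on either side, it was found in 41.6% of cytosolic, 23.3% of mitochondrial and 18.3% of all windows. Motifs were then searched on both strands in the 300 bases from 250 before to 50 after the start, each motif on its own, so that matches of different motifs could overlap. A form of the site of NRF1, a regulator of nuclear genes for mitochondria, spelled GCGCA, any base, then GCGC, was present in 17.8% of mitochondrial, 7.79% of cytosolic and 4.60% of all windows. The core CCGGAAG of ETS factors was present in 35.1% of cytosolic, 32.9% of mitochondrial and 8.86% of all windows. TATAAA was present in 9.09% of cytosolic, 6.85% of mitochondrial and 13.6% of all windows. These are matches of letters in annotated windows and were not tested as sites.

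Abundance is compared between genes as FPKM, the deposited fragments scaled to gene length and library total. Cytosolic members had a median of 285 FPKM over the 6 lungs, from 0.101 for Rpl39l to 968 for Rplp1. Rplp1, a P-stalk protein, Rps27, a small-subunit protein, and Rplp0, the base of the stalk, were the most abundant, at 968, 918 and 648 FPKM. Mitochondrial members had a median of 11.4 FPKM, from 2.18 to 74.0. Mrpl52, Mrps21 and Mrpl4 led them at 74.0, 40.03 and 34.0 FPKM. The median cytosolic FPKM was 21.4 to 27.3 times the mitochondrial one in each of the 6 lungs. FPKM depends on the deposited gene length, which includes long alternative exons for some genes, such as 5130 bases for Rps15a.

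**Figure D1:**
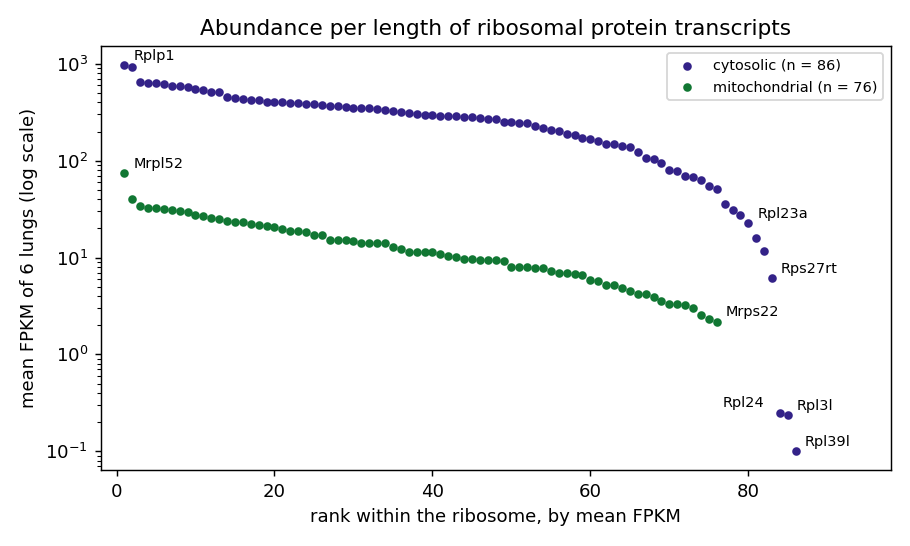
Mean FPKM over 6 lungs (y axis, log scale) against the rank within each ribosome (x axis), for the 86 cytosolic and 76 mitochondrial members, 1 point a gene. Rplp1 heads the cytosolic genes at 968 FPKM and Mrpl52 the mitochondrial ones at 74.0 FPKM, and Rpl24, Rpl3l and Rpl39l lie under 1 FPKM.

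The cytosolic members Rpl24, Rpl3l and Rpl39l did not pass the filter on low counts, and they were low in both groups. Rpl24, a large-subunit protein, had 6, 1 and 3 counts in the naive lungs and 5, 3 and 7 in the injured lungs. Rpl3l, a paralogue of Rpl3 known from striated muscle, had 14, 7 and 11 counts against 9, 3 and 5. Rpl39l, a paralogue of Rpl39 known from testis, had 2, 0 and 7 against 1, 0 and 4. For Rpl24, 47.0% of exon bases in GENCODE M21 are shared with another gene on the same strand, Gm28037. Of its 100-base transcript words, 51.0% are unique, meaning that no transcript of another gene in that annotation holds them. Over all members, the median share of unique words was 85.9% for cytosolic and 100% for mitochondrial members. The share was under 80% for 24 cytosolic genes and 1 mitochondrial gene, and it was 10.5% for Rps27rt, a retrocopy of Rps27. How reads that fit several places were counted is not given in the sources used here. The table lists 136 ribosomal pseudogene rows, which held 0.201% to 0.223% of ribosomal counts in each library.

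Cytosolic ribosomal protein transcripts were a little more abundant in injured lungs, and 1 of them, Rps2, passed the test. Of the 83 tested, 81 had a positive log2 fold change, injured over naive, against 49.8% of all 15486 genes tested. Their median log2 fold change was 0.21, which is 15.6% more, with quartiles of 0.132 and 0.275, beside a median of -0.00096 over all genes. In edgeR's quasi-likelihood test with Benjamini-Hochberg adjustment over all genes, 1 cytosolic gene was called higher and 0 lower at an adjusted p under 0.05, where 2.16% of all genes were called higher and 0.956% lower. Before adjustment, 34 were higher and 0 lower at a p under 0.05, against 9.06% and 7.66% of all genes. In 40 of the 83, all 3 injured lungs lay above all 3 naive lungs, against 12.3% of all genes, and in 0 of them below, against 10.6%.

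Mitochondrial ribosomal protein transcripts showed a smaller median and more mixed signs, and none passed the test. Of the 76, all tested, 59 had a positive log2 fold change (77.6%, against 49.8% of all genes) and 17 a negative one. The median was 0.13, which is 9.30% more, with quartiles of 0.020 and 0.217. In edgeR's test 0 were called in either direction, against 3.11% of all genes, and 7 (9.21%) were higher and 0 lower at an unadjusted p under 0.05, where 9.06% of all genes were higher and 7.66% lower, so the count of higher genes was near the background. DESeq2 and limma-voom also called 0. All injured lungs lay above all naive lungs for 18 genes (23.7%) and below for 1, Mrps30, against 12.3% and 10.6% of all genes.

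**Figure D2:**
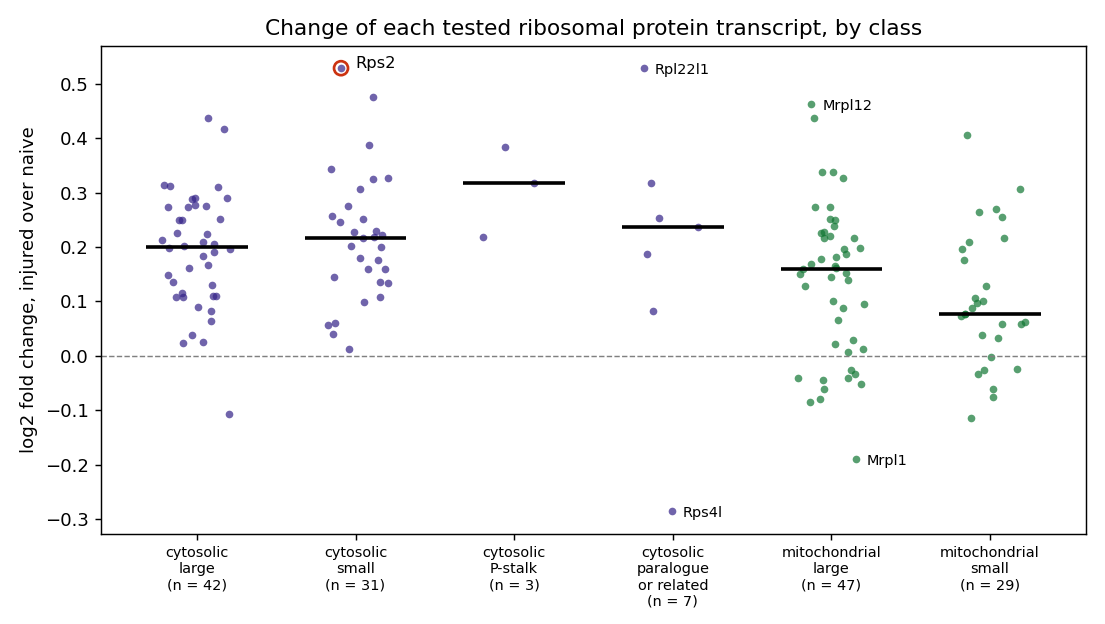
Log2 fold change, injured over naive (y axis), of each of the 159 tested members by class (x axis), with a bar at the class median. The circled gene, Rps2, is the only one called by edgeR. All 31 cytosolic small-subunit genes lie above 0, and the mitochondrial classes reach from -0.19 to 0.46.

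Library by library, the cytosolic genes took 2.38%, 2.27% and 2.04% of all counts in the naive lungs and 2.46%, 2.66% and 2.63% in the injured lungs. The means were 2.23% ± 0.169 and 2.58% ± 0.105 (SD, n = 3 each). Mitochondrial genes took 0.139%, 0.144% and 0.137% of counts in naive lungs and 0.154%, 0.148% and 0.162% in injured lungs, with means of 0.140% ± 0.00355 and 0.155% ± 0.00723 (SD, n = 3 each). The groups did not overlap for either ribosome, but the margins were narrow, between naive lung 1 and injured lung 1 for the cytosolic genes and between naive lung 2 and injured lung 2 for the mitochondrial genes. As the mean over tested genes of log2 CPM (counts scaled to a common library total) relative to the naive mean, the cytosolic level was 0.098, 0.016 and -0.114 in naive lungs and 0.137, 0.219 and 0.262 in injured lungs. The mitochondrial level was -0.034, 0.035 and -0.002 against 0.113, 0.044 and 0.197. Injured lung 2, for the cytosolic genes the highest by share of counts and the second highest by mean log2 CPM, was the lowest injured lung for the mitochondrial genes by both measures. Without naive lung 3, the lowest cytosolic library, the cytosolic median was 0.151, with 73 of 84 tested genes positive. Without injured lung 3 the mitochondrial median was 0.080, with 49 of 76 genes positive.

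**Figure D3:**
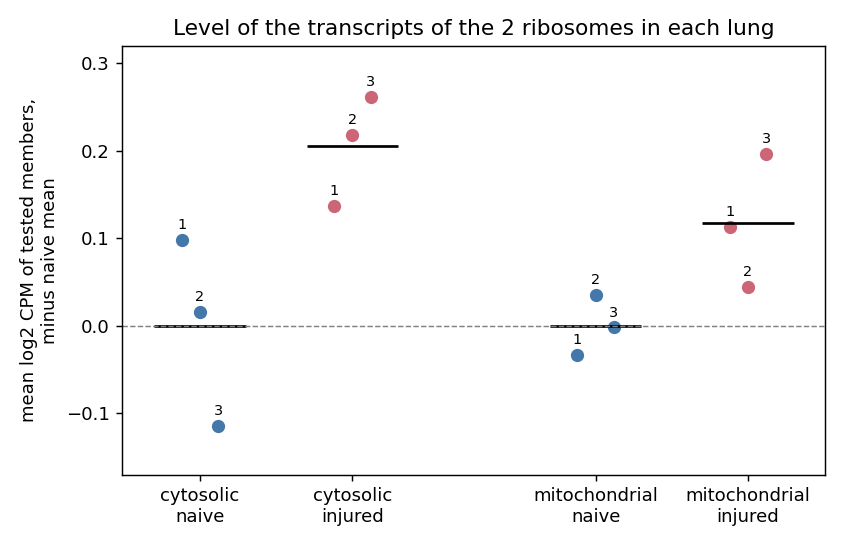
Mean log2 CPM of the tested genes of each ribosome in each of 6 lungs, relative to the naive mean (y axis), by group (x axis), with the lung's number above each point and a bar at the group mean. Injured lungs lie between 0.137 and 0.262 for the cytosolic genes and between 0.044 and 0.197 for the mitochondrial genes.

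The balance of the 2 ribosomes did not separate the groups. Summed FPKM of the mitochondrial genes was 4.27%, 4.63% and 4.92% of that of the cytosolic genes in naive lungs and 4.67%, 4.10% and 4.64% in injured lungs. The means were 4.61% ± 0.322 and 4.47% ± 0.320 (SD, n = 3 each), and the lungs overlapped. The larger cytosolic median is therefore a description, and a difference between the ribosomes was not tested.

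Small-subunit genes of the cytosolic ribosome all had positive values, 31 of 31, against 49.8% of all genes, with a median log2 fold change of 0.22. In 19 of them (61.3%) all injured lungs lay above all naive lungs, against 12.3% of all genes. Rps2 (ENSMUSG00000044533, chr17:24718116-24721929 on mm10), a protein on the side of the small subunit where messenger RNA enters, had 365, 392 and 389 CPM in naive lungs and 491, 563 and 599 CPM in injured lungs. The lowest injured lung was 98.9 CPM above the highest naive lung. The means were 382 ± 15.1 and 551 ± 54.8 CPM (SD, n = 3 each), a 1.44-fold rise. The log2 fold change was 0.53 ± 0.10 (SE), with an adjusted p of 0.0221 in edgeR's test. The call was lost with naive lung 1, naive lung 2 or injured lung 2 left out (adjusted p of 0.0785, 0.0984 and 0.0715) and with gene-length offsets (0.0555), while the log2 fold change stayed between 0.42 and 0.61. Of the 100-base words of Rps2, 69.8% are unique, and 7.32% of its exon bases are shared with another gene on the same strand, the small RNA gene Snora64.

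Rps9, a small-subunit protein chosen here after its values were seen as the next small-subunit gene by p, had 391, 379 and 375 CPM in naive lungs and 462, 501 and 472 CPM in injured lungs. The lungs did not overlap, with a log2 fold change of 0.33 ± 0.08 (SE) and an adjusted p of 0.0757 in edgeR's test. Rps28, which lies near the exit of messenger RNA, had 82.4, 76.4 and 52.4 CPM against 94.2, 85.0 and 114.3 CPM. Its log2 fold change of 0.48 ± 0.18 was among the largest, but naive lung 3 stood well below the other naive lungs and the adjusted p was 0.236 in edgeR's test. At the other end, Rps24 had 377, 351 and 329 CPM in naive lungs and 344, 376 and 347 CPM in injured lungs, a log2 fold change of 0.01 ± 0.09. Rps27, among the most abundant members, had 281, 228 and 184 CPM against 217, 252 and 242 CPM, a log2 fold change of 0.04 ± 0.14. For both of these the groups overlapped.

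The P-stalk, a flexible arm of the large subunit that draws elongation factors to the ribosome, is made of Rplp0, Rplp1 and Rplp2. The stalk genes had a median log2 fold change of 0.32 over 3 genes. Rplp2 had 198, 173 and 179 CPM in naive lungs and 227, 250.3 and 239 CPM in injured lungs, with no overlap, a log2 fold change of 0.38 ± 0.09 and an adjusted p of 0.0514 in edgeR's test. Rplp0 had 768, 834 and 751 CPM in naive lungs and 965, 971 and 995 CPM in injured lungs. Its groups did not overlap either, with a log2 fold change of 0.32 ± 0.09 and an adjusted p of 0.105 in edgeR's test, and DESeq2 called it at 0.00911. Rplp1 had 498, 403 and 427 CPM against 448, 566 and 532 CPM. Here naive lung 1 lay above injured lung 1, and the log2 fold change was 0.22 ± 0.12.

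Large-subunit genes of the cytosolic ribosome had a median log2 fold change of 0.20 over 42 tested genes. Of these, 41 were positive (97.6%), against 49.8% of all genes. In 18 (42.9%) all injured lungs lay above all naive lungs, against 12.3% of all genes. Rpl32, also chosen after its values were seen, had 194, 185 and 160 CPM in naive lungs and 228, 235 and 256 CPM in injured lungs, with a log2 fold change of 0.42 ± 0.10 and an adjusted p of 0.0562 in edgeR's test. The only negative member was Rpl23a, with 16.5, 15.6 and 9.5 CPM against 15.8, 7.6 and 15.02 CPM and a log2 fold change of -0.11 ± 0.32. Both of its groups were widely spread, and 62.3% of its exon bases are shared with other genes, chiefly Tlcd1. Rpl5 and Rpl11, which bind the same small ribosomal RNA and together restrain the p53 inhibitor Mdm2, had log2 fold changes of 0.02 ± 0.09 and 0.31 ± 0.09.

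**Figure D4:**
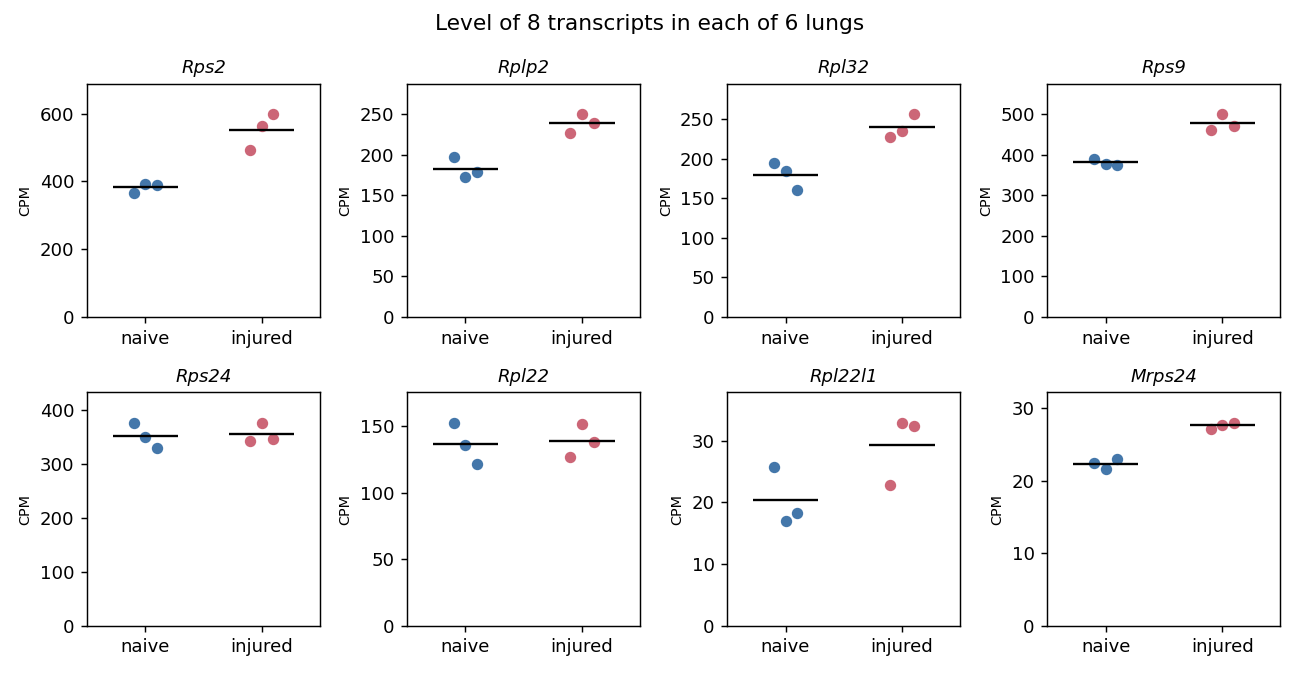
CPM (y axes, each starting at 0) of 8 transcripts in 3 naive and 3 injured lungs (x axes), 1 point a lung and a bar at the group mean. Rps2 lies at 365 to 392 CPM in naive lungs and 491 to 599 CPM in injured lungs, while Rps24 and Rpl22 overlap between the groups.

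The authors' deposited table, whose fold changes and adjusted p-values come from their own comparison, called 8 cytosolic members, all higher, where it called 3.61% of all genes higher. In the authors' deposited table these were Rps2 at a log2 fold change of 0.49, Rplp2 at 0.36, Rps19 at 0.36, Rpl32 at 0.39, Rps18 at 0.32, Rps9 at 0.31, Rplp0 at 0.30 and Rpl18 at 0.29. It called 0 mitochondrial members. DESeq2 run on the same counts called 9 cytosolic members higher, these 8 and Rpl11, where it called 3.78% of all genes higher.

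Paralogues, here gene copies related to a ribosomal protein gene, did not follow their partners in every case. Rpl22l1, the alternative to Rpl22 in the large subunit, had 25.8, 16.98 and 18.3 CPM in naive lungs and 22.9, 32.9 and 32.4 CPM in injured lungs. Naive lung 1 lay above injured lung 1, and the log2 fold change was 0.53 ± 0.19 with an adjusted p of 0.21 in edgeR's test. Rpl22 had 152, 136 and 122 CPM against 127, 152 and 138 CPM, a log2 fold change of 0.02 ± 0.11. Per length, Rpl22l1 stood at 70.9%, 52.4% and 63.0% of Rpl22 FPKM in naive lungs and at 75.5%, 91.0% and 98.2% in injured lungs. All 3 injured lungs were above the naive ones in this ratio, which was not tested.

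Rpl36al, the autosomal copy of the X-linked Rpl36a, had 62.6, 66.8 and 58.3 CPM in naive lungs and 72.2, 75.2 and 86.3 CPM in injured lungs. Its log2 fold change was 0.32 ± 0.10 with an adjusted p of 0.135 in edgeR's test, beside 0.08 ± 0.11 for Rpl36a. Its FPKM relative to Rpl36a was 31.4%, 34.0% and 36.6% in naive lungs and 38.2%, 39.6% and 41.3% in injured lungs. Rps4l, a copy of the X-linked Rps4x, had 25.9, 34.6 and 35.7 CPM against 22.6, 26.1 and 30.1 CPM, the most negative value of the family, with a log2 fold change of -0.29 ± 0.15 and an adjusted p of 0.388 in edgeR's test. Its naive lung 1 lay under injured lungs 2 and 3, so the groups overlapped. Rps4x had 0.14 ± 0.09.

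Among the other pairs, Rpl7 and Rpl7l1 had log2 fold changes of 0.13 ± 0.09 and 0.08 ± 0.12, and Rps27 and Rps27l had 0.04 ± 0.14 and 0.19 ± 0.10. Rpl3 had 0.20 ± 0.10 and Rpl39 had 0.29 ± 0.16, and their paralogues Rpl3l and Rpl39l were too low to test.

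In the mitochondrial ribosome the large-subunit names had a median log2 fold change of 0.16 over 47 genes, with 14 genes whose injured lungs all lay above the naive lungs. The small-subunit names had a median of 0.08 over 29 genes, with 4 such genes (13.8%), a share near the 12.3% of all genes. Mrpl12, a stalk protein that also binds the mitochondrial RNA polymerase, had 7.90, 9.26 and 8.54 CPM in naive lungs and 9.97, 10.4 and 14.9 CPM in injured lungs. Injured lung 3 stood far above the other injured lungs, and the log2 fold change was 0.46 ± 0.18 with an adjusted p of 0.237 in edgeR's test. Mrpl52 had 29.5, 24.9 and 23.3 CPM against 34.2, 30.2 and 40.8 CPM, with no overlap, a log2 fold change of 0.44 ± 0.14 and an adjusted p of 0.14 in edgeR's test. Mrps18b had a log2 fold change of 0.41 ± 0.24.

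The mitochondrial member with the smallest p was Mrps24, a small-subunit protein chosen after its values were seen. It had 22.4, 21.6 and 22.9 CPM in naive lungs and 27.1, 27.7 and 27.97 CPM in injured lungs, tight within both groups and with no overlap. Its log2 fold change was 0.31 ± 0.09 with an adjusted p of 0.126 in edgeR's test. Mrps21 and Mrpl4, the most abundant after Mrpl52, had log2 fold changes of 0.06 ± 0.11 and 0.18 ± 0.09.

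On the negative side, Mrpl1, a protein of the stalk beside the exit of spent transfer RNA, had a log2 fold change of -0.19 ± 0.15, and Mrpl22 had -0.09 ± 0.14. Mrps30, which carries a small-subunit name but is known to sit in the large subunit, had 10.9, 11.7 and 11.9 CPM in naive lungs and 10.1, 10.9 and 10.8 CPM in injured lungs. Naive lung 1 and injured lung 2 nearly met, and the log2 fold change was -0.11 ± 0.13. Mrps36, now also known as a part of the alpha-ketoglutarate dehydrogenase complex, had 0.26 ± 0.15.

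Gene length moved with the result. Ribosomal protein genes are short, with a median deposited length of 929 bases for cytosolic and 1407.5 for mitochondrial members, against 3034 over all genes tested. Among tested genes that are not members, the median log2 fold change was -0.010 up to 500 bases, 0.12 over 500 and up to 1000 bases, 0.07 over 1000 and up to 2000, 0.02 over 2000 and up to 4000, and -0.07 above 4000. Up to 500 bases, the 10 cytosolic members had a median of 0.25 and all 10 were positive. In the 3 classes from 500 to 4000 bases, cytosolic members had medians of 0.22 over 39 genes, 0.21 over 23 and 0.13 over 10, each above that of other genes of like length. Mitochondrial members had 0.17 over 21 genes, 0.13 over 26 and 0.07 over 19. With offsets for gene length in the fit, the medians were 0.11 for cytosolic and 0.057 for mitochondrial members, with 69 of 83 and 52 of 76 positive. The part of length in the result was not tested further.

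**Figure D5:**
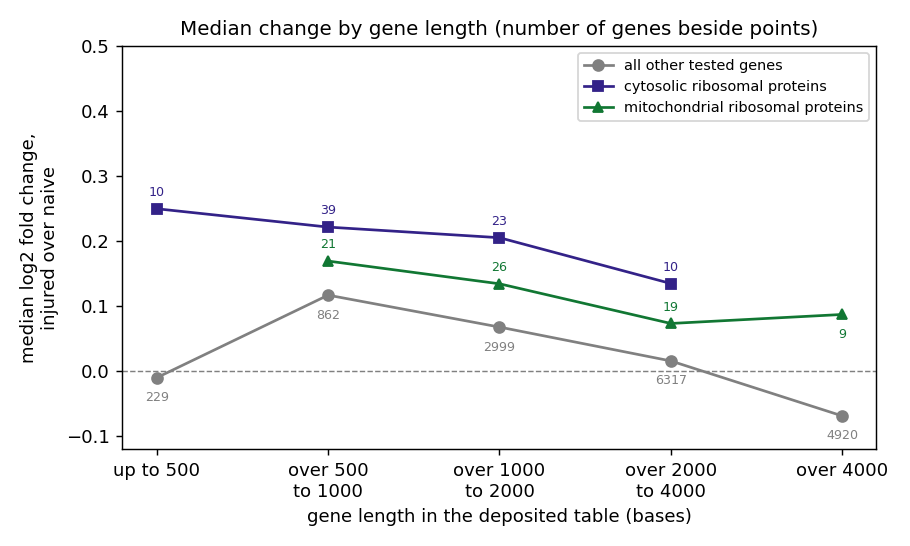
Median log2 fold change, injured over naive (y axis), of tested genes by deposited gene length in bases (x axis), for cytosolic members, mitochondrial members and all other genes, with the number of genes beside each point and classes of fewer than 5 genes left out. In the class over 500 and up to 1000 bases the medians are 0.22, 0.17 and 0.12.

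In the 7 other lists of the translation machinery, 1 gene was called, beside 3.11% of all genes, and list medians lay between 0.03 and 0.23. Over all genes, 49.8% were positive, and in 12.3% all injured lungs lay above all naive lungs. Among the 8 tested ribosomal proteins whose names fall outside the rule, 0 were called, 7 were positive and the median log2 fold change was 0.23. The most abundant were Fau, which gives rise to a small-subunit protein, at 0.30 ± 0.09 with an adjusted p of 0.1067 in edgeR's test, and Aurkaip1, a mitochondrial small-subunit protein, at 0.09. Of 22 non-ribosomal genes with TOP messengers, 20 were positive, and in 9 (40.9%) all injured lungs lay above all naive lungs. The median was 0.15, and 1 gene was called higher and 0 lower, against 2.16% and 0.956% of all genes. This was Nap1l1, a histone chaperone, which rose from 202 ± 6.75 to 260 ± 13.3 CPM (SD, n = 3 each), with a log2 fold change of 0.36 ± 0.08 and an adjusted p of 0.0493 in edgeR's test.

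Ribosome biogenesis genes process ribosomal RNA and assemble subunits in the nucleolus. They had a median log2 fold change of 0.14 over 55 tested genes, with 0 called and 43 positive. In 8 (14.5%) all injured lungs lay above all naive lungs. The most abundant of the 55 were Npm1, a nucleolar chaperone, at 0.20 ± 0.10, and Sbds, a factor of large-subunit maturation, at -0.05 ± 0.12. Cytosolic translation factors had a median of 0.09 over 51 genes, with 0 called and 42 positive. In 13 (25.5%) all injured lungs lay above all naive lungs. Among the 51, the elongation factor genes Eef1a1 and Eef2 each had 0.16. Cytosolic aminoacyl-tRNA synthetases, which load transfer RNA, had a median of 0.14 over 21 genes, with 0 called and 20 positive. In 9 of the 21 (42.9%) all injured lungs lay above all naive lungs. Wars, also the most abundant, had 0.39 with an adjusted p of 0.0594 in edgeR's test. Nars, second in abundance, had 0.19. On the mitochondrial side, translation and assembly factors had a median of 0.03 over 36 genes and mitochondrial aminoacyl-tRNA synthetases 0.03 over 19 genes. In each, 0 were called, and 20 of 36 and 11 of 19 were positive, beside 49.8% of all genes. All injured lungs lay above all naive lungs for 0 genes of either list. Tufm, the mitochondrial elongation factor, had 0.08 ± 0.13, and Rbfa, a factor of small-subunit assembly, 0.09. Lars2, the leucine enzyme, was widely spread, at 486, 311 and 1314 CPM in naive lungs and 769, 364 and 600.2 CPM in injured lungs. Iars2, the isoleucine enzyme, had a log2 fold change of 0.07.

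Markers of some cell types differed between the groups, and those of epithelial cells and fibroblasts had medians near 0. Over all genes, 2.16% were called higher, 0.956% were called lower and 49.8% were positive. At an unadjusted p under 0.05 in edgeR's test, 9.06% of all genes were higher and 7.66% lower. Neutrophil markers were called higher for 9 of 10 genes, with a median log2 fold change of 3.65, and summed to 61.6 to 97.2 CPM in naive lungs and 638 to 1392 CPM in injured lungs. Monocyte and interstitial macrophage markers were called higher for 7 of 9 tested genes, with a median of 0.85, summing to 298 to 344 CPM against 504 to 589 CPM. T cell markers were called lower for 3 of 10 genes, with a median of -0.77, summing to 99.3 to 106.8 CPM against 55.2 to 64.5 CPM. At an unadjusted p under 0.05 in edgeR's test, 10 of 10 neutrophil markers and 8 of 9 monocyte and macrophage markers were higher. By the same measure 10 of 10 T cell markers were lower. Of 10 proliferation markers, 1 was called higher, Mcm5 of the replicative helicase, with a log2 fold change of 0.88 and an adjusted p of 0.0204 in edgeR's test. The proliferation list had a median of 0.62 with 10 of 10 positive, 5 of them at an unadjusted p under 0.05, and summed to 123 to 177 CPM against 158 to 244 CPM. B cell, endothelial, epithelial and fibroblast markers had 0 called, with medians of -0.42, -0.13, -0.00066 and 0.0087. All 8 B cell markers were negative, and 4 were lower at an unadjusted p under 0.05 in edgeR's test. None of the markers in the lists so far was at 0 in any library. Heart and skeletal muscle markers, of which 7 were tested and 0 called, had a median of -0.72 and summed to 452 to 813 CPM in naive lungs and 126 to 628 CPM in injured lungs, and 3 of the 10 were at 0 in some library. In injured lungs 1, 2 and 3 the neutrophil sum was 1392, 1158 and 638 CPM. The monocyte and macrophage sum was 504, 551 and 589 CPM in the same lungs. The cytosolic ribosomal level there was 0.137, 0.219 and 0.262 by mean log2 CPM, and 2.46%, 2.66% and 2.63% by share of counts. The part of these cell types in the ribosomal values was not tested.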

How the data were processed

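The authors deposited read counts per gene, normalized counts (a signal that equalled counts over 1 factor per library), FPKM values, and log2 fold changes with p-values, per the file headers. STAR and HTSeq, besides DESeq2, edgeR and STAR-Fusion, are listed with mm10 in the submitters' processing notes. The strand setting is not given in the sources used here. Counts were analysed with edgeR 4.0.16 in R 4.3.3 (filterByExpr, TMM, robust quasi-likelihood F test, two-sided, group only), fitted to the whole table, and p-values were adjusted over the 15486 genes tested. CPM uses TMM-scaled library sizes. DESeq2 1.42.0 and limma-voom (limma 3.58.1) were alternatives, besides other scalings, filters, length offsets, a replicate block and leaving out each lung. The code was tested on simulated data.

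The members and lists were chosen with earlier results of these data known. Named were called members, the 3 most abundant and the 3 largest changes each way in each ribosome at 1 CPM or more, paralogue pairs, and, of other lists, called genes or the 2 most abundant. Rplp2, Rps9, Rpl32, Rpl5, Rpl11, Mrps24 and Mrps36 were added after their values were seen. Marker lists are given by counts, with only Mcm5 named. Uniqueness is the share of a gene's 100-base transcript words that no other gene's GENCODE M21 transcript holds. The rest of the genome was not searched. Symbols were matched to RefSeq promoters, and 161 of 162 identifiers to GENCODE M21.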

Additional observations from a re-analysis of the deposited data

How the results depend on the processing

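Of the alternatives, library size alone gave 2 cytosolic genes called higher, no filter 3, DESeq2 9 and length offsets 0, and leaving out 1 lung at a time gave 0 to 1, with 0 without naive lung 1, naive lung 2 or injured lung 2. No alternative called a mitochondrial gene or a cytosolic gene lower. Over all genes, DESeq2 called 585 higher and 417 lower and no filter 269 lower. Leaving out 1 lung gave 145 to 333 higher and 48 to 146 lower. The cytosolic median log2 fold change was 0.11 with length offsets and 0.151 to 0.242 with 1 lung left out, and the mitochondrial one 0.057 and 0.080 to 0.176. Under the 9 other settings they were 0.203 to 0.223 and 0.122 to 0.143. Among genes with at least 90% unique sequence, an alternative chosen after seeing the data, they were 0.23 and 0.13. The mitochondrial to cytosolic ratio, -0.044 on the log2 scale, reversed to 0.0052 without naive lung 3 and 0.014 without injured lung 2, from a range of -0.095 to 0.014. TOP starts within 5 bases were 41.6% and 23.3%. The cause of these differences was not tested. Deviations from the group means had an r of -0.085 to 0.154 in the 3 same-numbered pairs and of -0.297 to 0.282 in the others. With 3 lungs a group these values cannot settle whether the numbers pair the lungs. The labels state no pairing. With the replicate number as a block, 413 genes were called higher and 208 lower, 1 of them cytosolic.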
